A study of Mus musculus with 15 samples.

Results

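The genes described here are 7 of the 24499 genes counted in mouse liver: Hsd3b5, Cyp4a12a, Cyp4a12b, Cyp2d9, Elovl3, Moxd1 and Selenbp2. They were chosen by symbol, as targets of the transcription factor STAT5B that pulses of growth hormone keep active, and their levels in these libraries were known when they were selected. Their values are therefore given as descriptions, with no p-value for any one of them, and counts of members past a threshold support nothing. All 7 were in the tables and passed the filter on low counts.

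Messenger RNA was sequenced from 15 liver libraries of adult male C57BL/6 mice in 8 groups. Day 0 is the state before the second phase of the study: 2 libraries from the control arm, which the labels call OO without spelling the name out, and 2 from mice given carbon tetrachloride (CCl4), a liver toxin, intraperitoneally at 0.2 ml/kg 2 times a week over 6 weeks. At day 20 there was 1 library from OO mice on chow and 3 from OO mice given ethanol through a tube into the stomach, up to 25 g/kg per day over 3 weeks. Also at day 20, 2 libraries came from CCl4 mice on chow and 3 from CCl4 mice given ethanol, and both of these groups went on receiving CCl4 at 0.5 of the dose. At day 23, in another substudy, there was 1 OO library on chow and 1 with ethanol, and for these the labels do not repeat OO in the second phase. In the labels ethanol always comes with a high-fat diet, and chow never does, so ethanol and diet cannot be told apart. Library numbers are those of the labels. Whether each library is a separate animal is not stated, so a test measures the spread between these samples, which may be technical.

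The male pituitary releases growth hormone in pulses, and the female pituitary releases it more continuously. In mouse liver each pulse activates the receptor GHR, the kinase JAK2 and STAT5B, which enters the nucleus and switches on a set of genes that are high in males. When the pulses are lost or become continuous these male-biased genes go down and female-biased genes, such as Cyp2b9 and Cyp3a44, come up. The 7 genes belong to the male-biased set, and most of them encode enzymes of steroid and fatty acid metabolism.

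Between 10347844 and 28843258 reads per library were counted for genes. Levels are in CPM (counts scaled to the size of the library) after TMM scaling, and SD is the spread between the libraries of a group. The marker sums and the Xist level given next are the exception, in CPM without TMM scaling. The 8 hepatocyte markers summed to 79883 CPM or more in every library. The 4 Y-linked markers summed to 181 to 314 CPM, while Xist, the female X inactivation transcript, was at most 1.52 CPM. Transcripts of the exocrine pancreas (10 markers, unscaled) summed to 151 CPM in library 12, the single OO chow library of day 20, with 0 markers at 0, and to 130 CPM in the OO ethanol library 6 of day 23. The other libraries held at most 2.13 CPM of them. Every comparison with OO chow at day 20 rests on library 12, so for the members the value with library 5, the OO chow library of day 23, is also given. The summed level of 6 macrophage markers was 1377 to 1578 CPM in CCl4 ethanol livers, 1079 to 1721 CPM in CCl4 chow livers and 402 to 553 CPM in OO ethanol livers at day 20, with 0 markers at 0. It was 1220 CPM in library 12 and 714 CPM in library 5. The 6 markers of stellate cells and myofibroblasts, with 0 at 0, summed to 540 to 598 CPM in CCl4 and 244 to 359 CPM in OO livers at day 0. At day 20 they summed to 819 to 1275 CPM in CCl4 ethanol, 1176 to 1750 CPM in CCl4 chow and 262 to 457 CPM in OO ethanol livers, and to 617 CPM in library 12. The part of other cells and of pancreas transcripts in the results was not tested. In whole liver, fewer hepatocytes and less RNA per hepatocyte cannot be told apart.

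In the control arm at day 0 the 7 genes spanned a wide range of abundance. Per kilobase of the longest coding transcript, the mean level in OO livers at day 0 (n = 2, SD) was 639 ± 69.1 CPM for Cyp2d9 and 572 ± 55.4 CPM for Selenbp2. On the same per-kilobase scale Elovl3 had a level of 144 ± 53.9 CPM, Moxd1 107 ± 20.7 CPM and Hsd3b5 103 ± 16.2 CPM. Cyp4a12a followed with a level of 42.9 ± 15.9 CPM per kilobase and Cyp4a12b with 12.4 ± 1.45 CPM per kilobase. The neighbours in this order from Cyp2d9 to Selenbp2, and from Elovl3 to Moxd1 to Hsd3b5, differed by less than the sum of their SDs. All later CPM values are not divided by length and compare a gene only with itself.

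Several of the genes have close copies, which matters because a read with several possible places was counted for no gene, and such reads made up 18.1% to 28.8% of each library. Of all stretches of 50 bases in the transcript (GENCODE release 21 for mouse), 48.9% in Cyp4a12a are also found in Cyp4a12b, and 52% in Selenbp2 are also found in Selenbp1. The share was 29% for Cyp2d9, which has its closest copies in Cyp2d12 and Cyp2d10, and 21.2% for Hsd3b5, shared with Hsd3b4 and Gm10681. Elovl3 and Moxd1 share 0 such stretches with other genes. The levels of the 5 genes with copies are uncertain to that extent.

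**Figure D1:**
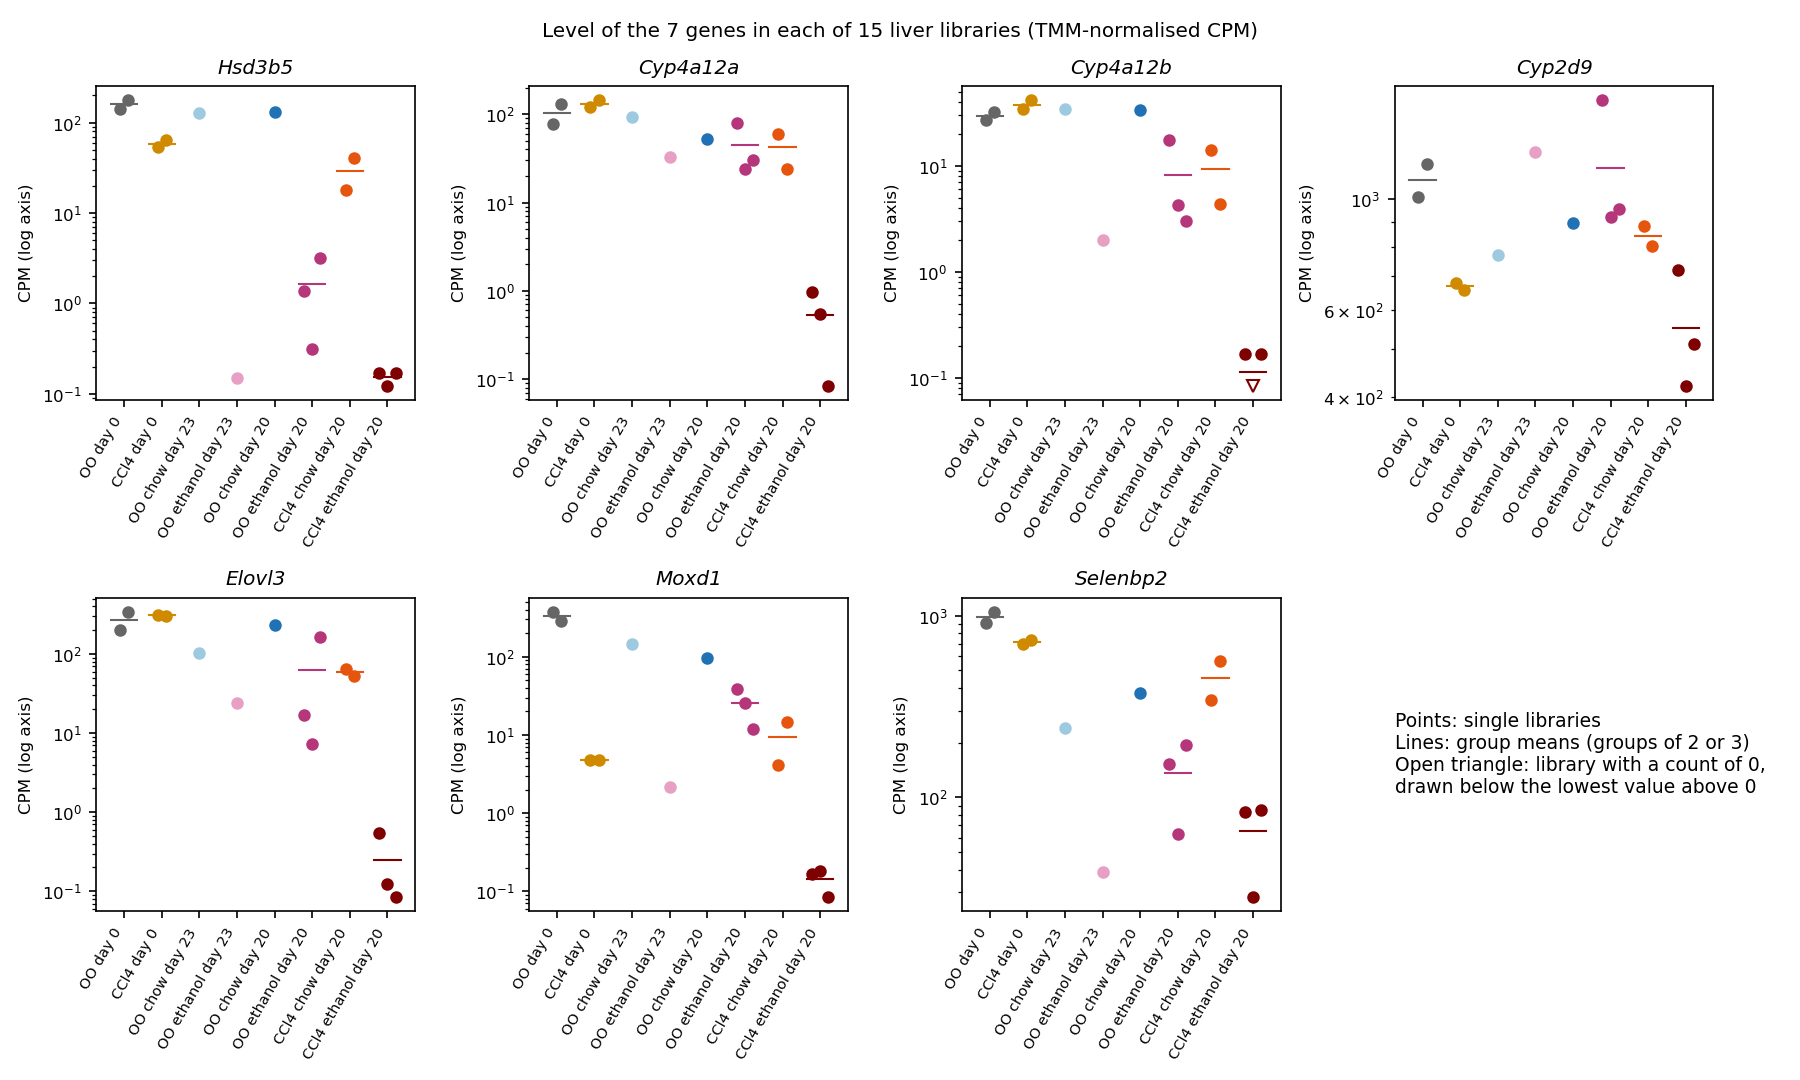
Level of each of the 7 genes in each library (TMM-normalised CPM, logarithmic axis), by group; points are libraries, lines are means of groups of 2 or 3, and the open triangle marks the library with a Cyp4a12b count of 0. In CCl4 ethanol livers Hsd3b5, both Cyp4a12 genes, Elovl3 and Moxd1 stand below 1 CPM in all 3 libraries, while Cyp2d9 stays at 422 to 720 CPM.

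Hsd3b5 encodes a male-specific liver member of the 3-beta-hydroxysteroid dehydrogenase family, which works as a reductase of steroids. In mm10 the gene spans 98618634 to 98630252 of chromosome 3, minus strand. In OO livers at day 0 it stood at 142 and 177 CPM, and in CCl4 livers at day 0 at 53.2 and 63.8 CPM. The OO chow libraries were alike, with 132 CPM at day 20 and 128 CPM at day 23, and the CCl4 chow libraries had 18.2 and 40.8 CPM. Chow livers therefore all kept a clear Hsd3b5 signal, lower in each CCl4 library than in each OO library. With ethanol the level in OO livers at day 20 was 1.39, 0.313 and 3.19 CPM, from counts of 14, 6 and 36. CCl4 ethanol livers had 0.169, 0.123 and 0.168 CPM, from counts of 4, 2 and 2. At these counts the CCl4 ethanol libraries are close to the level of 3 counts, which is 0.137 to 0.268 CPM in these libraries. The ethanol and chow libraries did not overlap in either arm.

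The fitted change of Hsd3b5 with ethanol was a log2 difference of -6.47 ± 0.57 (SE) in OO livers (1.63 ± 1.45 against 132 CPM, n = 3 and 1) and -7.51 ± 0.69 in CCl4 livers (0.153 ± 0.0265 against 29.5 ± 16 CPM, n = 3 and 2). With library 5 as the OO control the first value was -6.43. It was -7.51 without library 15, which was the highest of the 3 OO ethanol libraries. In CCl4 livers the ratio of summed counts, chow over ethanol, was 195 with a 95% exact interval of 98.6 to 453 that covers counting error only. The CCl4 difference was -1.45 ± 0.46 at day 0 and -2.16 ± 0.54 under chow at day 20 (-2.11 with library 5). Under ethanol the CCl4 difference was -3.19 ± 0.93, and it was -2.16 without library 15. The order of group means was OO day 0, the OO chow libraries, CCl4 day 0, CCl4 chow, OO ethanol day 20 and last CCl4 ethanol beside OO ethanol day 23. The OO day 0 and OO chow levels, and the last pair, differed by less than 2 SD.

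Hsd3b5 was 1 of 4 members with a promoter in the RefSeq table (build GRCm38.p6), beside Moxd1, Cyp2d9 and Selenbp2. Cyp4a12a, Cyp4a12b and Elovl3 are named only. In the 250 bases before each start both strands were searched for the letters TTCNNNGAA, the core that STAT5 dimers bind, and for the same TTC and GAA with 4 bases between them. The first motif is found in 7.02% of the 32851 windows in the table and the second in 5.85%, and the spacing keeps a match of one from being a match of the other at the same place. Hsd3b5 has 1 match to the wider motif, 203 to 194 bases before the RefSeq start, and Moxd1 has 1 match to TTCNNNGAA, 150 to 142 bases before its start. Cyp2d9 and Selenbp2 have neither set of letters in this window. The 2 windows with a match are shown because they are the promoters of the members that differed most in OO ethanol livers (Hsd3b5) and in CCl4 livers at day 0 (Moxd1). Capitals mark the match.
Hsd3b5, chr3:98645535-98645784, minus strand: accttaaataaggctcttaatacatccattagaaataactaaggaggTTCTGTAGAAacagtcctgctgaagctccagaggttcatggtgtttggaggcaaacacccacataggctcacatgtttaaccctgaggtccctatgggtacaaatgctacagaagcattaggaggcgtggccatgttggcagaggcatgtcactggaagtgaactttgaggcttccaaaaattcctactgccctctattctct
Moxd1, chr10:24223267-24223516, plus strand: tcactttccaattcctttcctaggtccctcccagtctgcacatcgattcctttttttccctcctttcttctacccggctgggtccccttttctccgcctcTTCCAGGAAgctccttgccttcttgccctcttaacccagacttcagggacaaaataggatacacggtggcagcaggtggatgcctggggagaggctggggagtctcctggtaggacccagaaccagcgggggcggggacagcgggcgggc
The RefSeq start of Hsd3b5 lies upstream of the gene as GENCODE draws it, which reaches only to base 98630252, so its window does not adjoin that gene. The window of Cyp2d9 (82452127 to 82452376) lies inside the gene as GENCODE draws it, which begins at base 82433437. The windows of both genes therefore depend on the annotation. A match is a description of these letters, and binding was not measured.

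Cyp4a12a and Cyp4a12b encode cytochrome P450 enzymes that hydroxylate fatty acids, arachidonic acid among them, at the end of the chain. They lie 78809 bases apart on chromosome 4, at 115299046 to 115332815 and 115411624 to 115439034, both on the plus strand of mm10. Their coding sequences have the same length of 1527 bases and are identical at 1504 of them (98.5%). Coding bases 661 to 750, the 90 bases with the most differences, are shown because reads from such places can tell the genes apart, with the 7 differing bases in capitals (GENCODE transcripts).
Cyp4a12a: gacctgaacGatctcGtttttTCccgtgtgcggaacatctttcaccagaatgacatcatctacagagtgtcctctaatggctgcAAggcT
Cyp4a12b: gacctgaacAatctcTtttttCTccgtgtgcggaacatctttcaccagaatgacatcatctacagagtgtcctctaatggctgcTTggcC

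Cyp4a12a stood at 76.7 and 131 CPM in OO livers and at 120 and 144 CPM in CCl4 livers at day 0. At day 20 it was 51.9 CPM in OO chow, 80.6, 23.7 and 30.3 CPM in OO ethanol, and 60 and 24.2 CPM in CCl4 chow livers. In CCl4 ethanol livers it was 0.97, 0.552 and 0.0842 CPM, from counts of 23, 9 and 1. The 3 CCl4 ethanol libraries stood below all 12 others, and the other day 20 groups overlapped. The log2 difference with ethanol was -0.22 ± 0.65 in OO livers (44.8 ± 31.1 against 51.9 CPM), and -6.07 ± 0.70 in CCl4 livers (0.535 ± 0.443 against 42.1 ± 25.3 CPM). With library 5 as control the OO value was -1.07, and without library 13 it was -0.95. In CCl4 livers it was -5.28 without library 16 and -6.87 without library 18. The CCl4 difference was 0.34 ± 0.56 at day 0, -0.31 ± 0.69 under chow and -6.16 ± 0.68 under ethanol; without library 13 the last was -5.42, and with library 5 the chow value was -1.15.

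Cyp4a12b followed its neighbour at a lower level, with 27.3 and 32.2 CPM in OO and 34.2 and 41.7 CPM in CCl4 livers at day 0. OO chow had 33.7 CPM at day 20, OO ethanol 17.4, 4.23 and 3.01 CPM, and CCl4 chow 14.2 and 4.38 CPM. CCl4 ethanol libraries held counts of 4, 0 and 2, or 0.169, 0 and 0.168 CPM. All 3 OO ethanol libraries lay below library 12 for Cyp4a12b and 2 of 3 for Cyp4a12a, and all 3 lay below library 5 for both genes. The log2 difference with ethanol was -2.07 ± 0.72 in OO livers, -2.09 with library 5 as control and -3.19 without library 13. In CCl4 livers it was -6.23 ± 1.01 and ranged from -5.15 without library 16 to -6.85 without library 18. The chow over ethanol ratio of summed counts there was 78.3 with an interval of 35.5 to 215. The CCl4 difference was 0.35 ± 0.65 at day 0, -1.87 ± 0.79 under chow (-1.89 with library 5) and -6.02 ± 0.98 under ethanol, the last -4.90 without library 13. For both genes the OO ethanol and CCl4 chow means differed by less than their SDs, and CCl4 ethanol was the lowest group. The OO chow library of day 20 stood among the day 0 libraries for Cyp4a12b and among the OO ethanol and CCl4 chow libraries for Cyp4a12a.

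Cyp2d9 encodes the P450 enzyme of male mouse liver that hydroxylates testosterone. Its locus in mm10 is chromosome 15, 82433437 to 82456845, plus strand. It stood at 1010 and 1177 CPM in OO and at 680 and 656 CPM in CCl4 livers at day 0. At day 20 it was 894 CPM in OO chow and 885 and 805 CPM in CCl4 chow livers. OO ethanol livers had 1581, 922 and 957 CPM, all above the chow library, and CCl4 ethanol livers had 720, 422 and 512 CPM, all below theirs. Cyp2d9 ran from 422 to 1581 CPM over all 15 libraries, the smallest ratio of highest to lowest among the members. The log2 difference with ethanol was 0.37 ± 0.33 in OO livers (1153 ± 371 against 894 CPM, and 0.58 with library 5 as control) and -0.62 ± 0.26 in CCl4 livers (552 ± 153 against 845 ± 56.1 CPM). The CCl4 difference was -0.71 ± 0.28 at day 0, -0.08 ± 0.35 under chow (0.13 with library 5) and -1.06 ± 0.23 under ethanol. The OO ethanol and OO day 0 means differed by less than their SDs, both OO chow libraries (894 and 771 CPM) lay below both OO day 0 libraries, and CCl4 day 0 and CCl4 ethanol were the lowest groups.

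Elovl3 encodes an enzyme of the endoplasmic reticulum that lengthens very long chain fatty acids. Its mm10 locus is chromosome 19, 46131897 to 46135694, plus strand. Its level was 199 and 342 CPM in OO and 314 and 304 CPM in CCl4 livers at day 0, and 235 CPM in OO chow at day 20. OO ethanol livers were far apart, with 17, 7.2 and 164 CPM. The highest of these, library 15, stood 22.8 times above the lowest, the widest spread of any member in this group. CCl4 chow livers had 65.1 and 52.3 CPM, and CCl4 ethanol livers 0.548, 0.123 and 0.0842 CPM from counts of 13, 2 and 1. The 3 CCl4 ethanol libraries stood below all 12 others. The log2 difference with ethanol was -1.91 ± 1.04 in OO livers, -4.31 without library 15 and -0.71 with library 5 as control. In CCl4 livers it was -7.57 ± 1.33 (0.252 ± 0.258 against 58.7 ± 9.04 CPM), and -9.00 without library 18. The ratio of summed counts was 189, with an interval of 116 to 332. With CCl4 Elovl3 differed by 0.19 ± 0.97 at day 0, -2.00 ± 1.15 under chow (-0.80 with library 5) and -7.66 ± 1.30 under ethanol (-5.26 without library 15). The day 0 levels and OO chow at day 20 overlapped, as did OO ethanol and CCl4 chow.

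Moxd1 encodes a copper-dependent monooxygenase of the endoplasmic reticulum, a relative of dopamine beta-hydroxylase. The gene spans 24223517 to 24302790 of chromosome 10 (mm10, plus strand). Of the members it had the largest log2 difference with CCl4 before any ethanol: 376 and 285 CPM in OO and 4.76 and 4.85 CPM in CCl4 livers at day 0. The log2 difference was -6.10 ± 0.61 (4.8 ± 0.0613 against 330 ± 64.1 CPM, n = 2 in each), and the ratio of summed counts, OO over CCl4, was 68.3. At day 20 the level was 97.1 CPM in OO chow, 4.1 and 14.6 CPM in CCl4 chow, and 38.3, 25.9 and 12 CPM in OO ethanol livers. CCl4 ethanol livers held counts of 4, 3 and 1, or 0.169, 0.184 and 0.0842 CPM. Moxd1 was thus lowest where both treatments met, and CCl4 chow and OO ethanol libraries overlapped.

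The log2 difference of Moxd1 with ethanol was -1.94 ± 0.52 in OO livers (-2.50 with library 5 as control) and -5.86 ± 0.79 in CCl4 livers (-4.63 without library 17, -6.50 without library 16). The ratio of summed counts in CCl4 livers was 62.3, with an interval of 31.2 to 146. Moxd1 differed with CCl4 by -3.37 ± 0.59 under chow, -3.93 with library 5 as control, -2.73 without library 16 and -4.55 without library 17. Under ethanol it was -7.29 ± 0.71. In OO livers the chow levels themselves were lower than at day 0, at 97.1 CPM on day 20 and 144 CPM on day 23 against 330 ± 64.1 CPM.

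Selenbp2 encodes a selenium-binding protein of the cytosol that also binds acetaminophen. The gene spans 94693556 to 94704413 of chromosome 3 (mm10, plus strand). It stood at 916 and 1051 CPM in OO and at 702 and 731 CPM in CCl4 livers at day 0. At day 20 OO chow had 374 CPM, CCl4 chow 343 and 566 CPM, and OO ethanol 152, 62.5 and 194 CPM. CCl4 ethanol livers had 82.8, 28.2 and 84.8 CPM. Both ethanol groups stood below both chow groups and overlapped each other. The log2 difference with ethanol was -1.46 ± 0.56 in OO livers (-0.83 with library 5 as control) and -2.80 ± 0.48 in CCl4 livers (65.3 ± 32.1 against 455 ± 158 CPM). The CCl4 difference was -0.46 ± 0.52 at day 0, 0.28 ± 0.65 under chow (0.91 with library 5) and -1.06 ± 0.43 under ethanol. Selenbp2 kept 14.4% of its chow level in CCl4 ethanol livers, where Elovl3 kept 0.429% and Hsd3b5 0.519% of theirs.

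**Figure D2:**
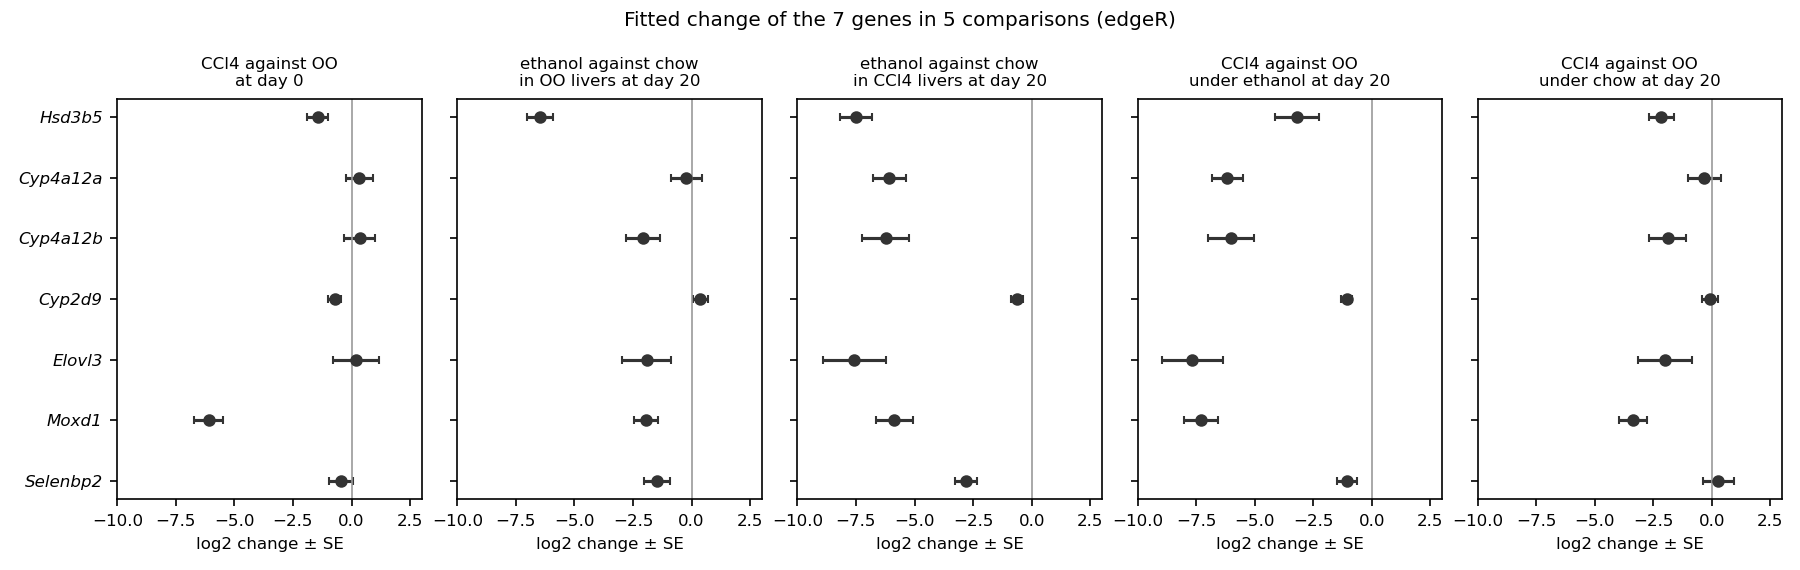
Fitted log2 change ± SE (edgeR, horizontal axis) of the 7 genes in 5 comparisons, 1 panel each; the vertical line marks no change. Hsd3b5 is far below 0 under ethanol in both arms, Moxd1 is far below 0 at day 0, and both Cyp4a12 genes, Elovl3 and Moxd1 lie at -5.86 or lower with ethanol in CCl4 livers and with CCl4 under ethanol.

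A gene is called below when edgeR's quasi-likelihood test over 14778 genes gives it a Benjamini-Hochberg adjusted p under 0.05, and since the members were chosen with these results known nothing is read from their counts. At day 0, 1 of 7 was called lower with CCl4 (Moxd1) and 0 higher, where 1.11% of all genes were called lower and 0.947% higher. With ethanol in OO livers, 1 of 7 was called lower (Hsd3b5), with a background of 2.42% lower and 1.22% higher. With ethanol in CCl4 livers, 6 of 7 were called lower, all but Cyp2d9, with a background of 0.765% lower and 0.501% higher. With CCl4 under ethanol, 6 of 7 were called lower, all but Selenbp2, and 11% of all genes were called lower and 12.7% higher. With CCl4 under chow 0 of 7 were called (background 0.169% lower, 0.0203% higher); 3 had an unadjusted p under 0.05, DESeq2 called 1 and limma-voom 1.

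The count in CCl4 livers depended on the fit. It was 3 of 7 by limma-voom with the sequencing lane as a random block, 6 by DESeq2, 6 without libraries 6 and 12, a choice made after seeing the data, and 3 or 4 when any 1 of its 5 libraries was left out. CCl4 under ethanol gave 4 of 7 by limma-voom and 5 to 7 when any 1 library was left out. In OO livers the count was 0 of 7 when only the compared groups were fitted and 3 of 7 without library 13. At day 0, and with CCl4 under chow, it was 4 of 7 when only the compared groups were fitted.

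The libraries of the groups did not overlap, with the lower level under CCl4, for 4 of 7 genes at day 0, where this held for 29% of all genes. With ethanol in CCl4 livers it held for 7 of 7 against 13.5% of all genes, and with CCl4 under ethanol for 6 of 7 against 17.4%. The median log2 change of the 7 was -0.46 at day 0, -1.91 with ethanol in OO livers and -6.07 with ethanol in CCl4 livers, beside a median of 0.01 over all genes in each. It was -6.02 with CCl4 under ethanol (-0.04 over all genes) and -1.87 with CCl4 under chow (0.00).

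The ethanol differences of the OO and CCl4 arms can be compared directly, since they share no library. The interaction was negative for all 7 genes, with a median of -3.93 beside -0.03 over all genes. It was -5.85 ± 1.09 for Cyp4a12a and -5.66 ± 1.99 for Elovl3. It was -4.15 ± 1.44 for Cyp4a12b, -3.93 for Moxd1 (SE 1.1), -1.34 ± 0.79 for Selenbp2, -1.03 ± 1.14 for Hsd3b5 and -0.98 ± 0.43 for Cyp2d9. edgeR called 0 of 7 (background 0.0135% lower, 0% higher), 5 had an unadjusted p under 0.05, DESeq2 called 2 and limma-voom 0. Without library 15 the value was -3.26 for Elovl3 and -0.00 for Hsd3b5, and with library 5 as control it was -6.86 for Elovl3, -5.01 for Cyp4a12a, -4.13 for Cyp4a12b and -3.36 for Moxd1. With that control it was -1.97 for Selenbp2, -1.20 for Cyp2d9 and -1.08 for Hsd3b5.

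The pair of day 23 libraries has no replicates, and its intervals cover counting error only. Hsd3b5 was at 128 CPM on chow and 0.151 CPM with ethanol, a ratio of 847 from a count of 4 in the ethanol library (95% exact interval 330 to 3111). Moxd1 was at 144 and 2.15 CPM, Cyp4a12b at 34.2 and 2 CPM, and Selenbp2 at 241 and 38.6 CPM. Elovl3 was at 103 and 23.9 CPM and Cyp4a12a at 93.3 and 32.7 CPM. Cyp2d9 was at 771 CPM on chow and 1245 CPM with ethanol, the only member higher with ethanol. Library 6, the ethanol library, is 1 of the 2 with pancreas transcripts.

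Among the genes of growth hormone signalling, Ghr, the receptor, had its lowest levels where both treatments met. It stood at 393 and 445 CPM in CCl4 chow and at 200, 252 and 223 CPM in CCl4 ethanol livers, and fell by 0.90 ± 0.14 on the log2 scale (edgeR adjusted p = 0.0143). That call was lost in 4 of 13 alternatives, among them without library 16 (adjusted p = 0.0567), without library 17 (0.13) and without library 20 (0.0526). Against OO ethanol livers (442 ± 39.3 CPM, n = 3) Ghr in CCl4 ethanol livers (225 ± 26.2 CPM, n = 3) fell by 0.97 ± 0.13 (adjusted p = 0.0005), and 14 of 14 alternatives kept the call. In OO livers its ethanol difference was -0.32 ± 0.18 (adjusted p = 0.381), and -0.50 (0.263) with library 5 as control. Its interaction was -0.58 ± 0.24 (adjusted p = 0.526; -0.39 with library 5), so the ethanol differences of the arms were not shown to differ.

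Stat5b, the transducer, and Igf1, the growth factor that growth hormone induces in liver, were not called in any of the 6 tests. Igf1 was at 446 ± 100 CPM in CCl4 ethanol and 467 ± 122 CPM in CCl4 chow livers, a log2 difference of -0.07 ± 0.22 (adjusted p = 0.946). Stat5b was at 64.4 ± 6.72 and 93.7 ± 13.9 CPM without overlap, a difference of -0.54 ± 0.20 (adjusted p = 0.292). At day 0 Igf1 was at 661 ± 2.95 CPM in CCl4 and 449 ± 30.8 CPM in OO livers without overlap (0.56 ± 0.24, adjusted p = 0.266). Of 12 alternatives 1 called it. Of the STAT5-induced feedback inhibitors, edgeR called neither Socs2 nor Cish in the 6 tests. Socs2 was called in 1 alternative each at day 0, with CCl4 under ethanol and with CCl4 under chow. It was at 5.1 ± 0.496 CPM in CCl4 and 14.1 ± 1.63 CPM in OO livers at day 0 without overlap (-1.46 ± 0.67, adjusted p = 0.294), at 4.90 and 5.38 CPM in CCl4 chow against 13.9 CPM in OO chow livers, and at 4.22, 21.3 and 4.88 CPM in CCl4 ethanol livers. An adjusted p above 0.05 does not show that these levels were equal.

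Of the 18 tested genes of growth hormone signalling, 1 was called higher at day 0, where 0.947% of all genes were. It was Igfbp3, a carrier of IGF1, a call lost without library 2, 3 or 4. With ethanol 0 of the 18 were called in OO livers, and 1 (Ghr) was called lower in CCl4 livers, beside 0.765% of all genes. In OO livers 4 of the 18 had an unadjusted p under 0.05, DESeq2 called 2 and limma-voom 1. Between the 2 ethanol groups, CCl4 against OO, 2 rose (Ptpn6, a phosphatase, and Igfbp3) and 3 fell (Ghr, Stat5a and Igfals, the acid-labile subunit that carries IGF1 in plasma). Igfals went from 137 ± 12.4 to 88.3 ± 28.6 CPM (adjusted p = 0.0299), a call lost in 5 of 14 alternatives. These shares, 11.1% and 16.7%, stand beside 12.7% and 11% of all genes. With CCl4 under chow 0 were called, 0 had an unadjusted p under 0.05, and DESeq2 and limma-voom called 0. The interaction called 0, 2 had an unadjusted p under 0.05, and both other tools called 0.

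**Figure D3:**
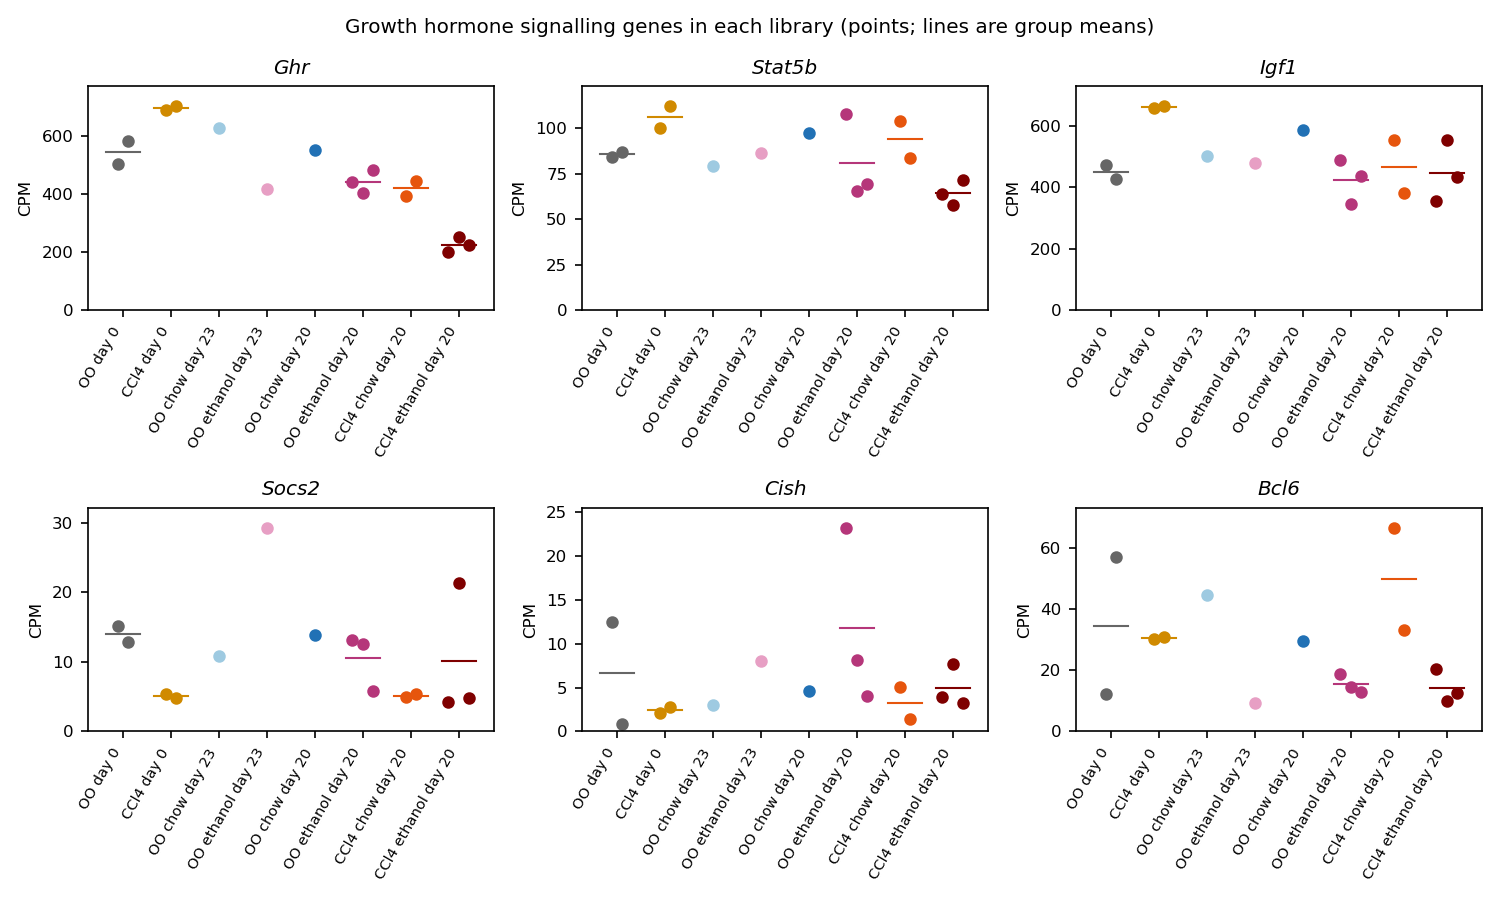
Level of 6 genes of growth hormone signalling and sex-biased regulation in each library (TMM-normalised CPM, axis from 0), by group; points are libraries and lines are means of groups of 2 or 3. Ghr is lowest in the 3 CCl4 ethanol libraries (200 to 252 CPM), while Igf1 there (354 to 552 CPM) overlaps the other day 20 groups apart from library 12.

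Among 17 regulators of sex-biased genes, Bcl6, a repressor that competes with STAT5, Cux2, a female-biased repressor of male genes, and Hnf4a were not called by edgeR in any of the 6 tests. Hnf4a with CCl4 under ethanol was at 479 ± 58.7 against 638 ± 108 CPM without overlap (-0.41 ± 0.14, adjusted p = 0.0607), and 4 of 14 alternatives called it. Bcl6 was at 14.3 ± 5.55 CPM in CCl4 ethanol and 50 ± 23.6 CPM in CCl4 chow livers without overlap (log2 difference -1.79 ± 0.50, adjusted p = 0.143). Cux2 was at 1.99 ± 3.11 CPM in CCl4 ethanol livers, where its spread was above its mean, and 0.492 ± 0.132 CPM in CCl4 chow livers (2.01 ± 1.27, adjusted p = 0.611). Cebpa, a hepatocyte transcription factor, was the 1 of 17 called with ethanol in OO livers, where 1.22% of all genes rose. It was higher by 0.80 ± 0.16 (adjusted p = 0.0237). With library 5 as control its difference was -0.07 (adjusted p = 0.912), and the call was lost in 5 of 11 alternatives. With CCl4 under ethanol 1 regulator rose, the histone methyltransferase Ezh2 (1.18 ± 0.20, adjusted p = 0.00191), and 4 fell: Cebpa, Tox, Foxa1 and Foxa2. These shares, 5.88% and 23.5%, stand beside 12.7% and 11% of all genes. Over the alternatives 2 to 5 regulators fell, and 9 of 14 alternatives kept the call of Foxa2. Cebpa went from 208 ± 17.5 to 124 ± 11.5 CPM (adjusted p = 0.000826) and Foxa1 from 13.7 ± 6.55 to 5.87 ± 0.885 CPM (0.0159, lost in 2 of 14 alternatives). In the other 4 tests edgeR called 0 of 17. At an unadjusted p under 0.05 there were 4 at day 0, 2 with ethanol in CCl4 livers, 1 with CCl4 under chow and 1 for the interaction. DESeq2 called 2, 0, 0 and 1 of them in that order, and limma-voom 0 in each.

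Other male-biased genes of the liver, 24 tested, were mostly lower under the same treatments as the 7. This list was drawn up with results of these data known, so its direction is not independent evidence. With ethanol in CCl4 livers 13 of 24 fell and 0 rose, where 0.765% of all genes fell. The median log2 change of the 24 was -1.89 beside 0.01 over all genes. The bile acid hydroxylase Cyp7b1 went from 132 ± 37.2 to 14.3 ± 4.2 CPM (-3.20 ± 0.27, adjusted p = 0.00025) and the organic anion transporter Slco1a1 from 183 ± 43.1 to 6.17 ± 0.977 CPM (-4.89 ± 0.43, adjusted p = 0.000261). Both calls held in 13 of 13 alternatives. The pheromone carrier Mup7 and the peroxisomal hydrolase Nudt7 also fell, by 5.56 ± 0.69 (adjusted p = 0.00268) and 1.84 ± 0.23 (0.00299). The count was 5 of 24 without library 17, 7 without library 16 or without library 20, and 8 when only the compared groups were fitted.

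With ethanol in OO livers 4 of 24 fell, where 2.42% of all genes fell. They were Slco1a1, Serpina4-ps1, the complement gene C6 and Nudt7, whose call was lost in 5 of 11 alternatives. Slco1a1 was at 26.5 ± 17.6 CPM against 266 CPM on chow (-3.33 ± 0.45, adjusted p = 0.00343), and -4.33 (0.00103) with library 5 as control. With that control 3 fell, with the days merged 9, and when only the compared groups were fitted 0. Cyp7b1 was not called there, at 176 ± 47.1 against 229 CPM (-0.38 ± 0.33, adjusted p = 0.576). Its interaction was -2.82 ± 0.46 (adjusted p = 0.0709), called in 5 of 16 alternatives. All 4 genes called in OO livers were also called lower with ethanol in CCl4 livers. The interaction of Slco1a1 was -1.56 ± 0.66 (adjusted p = 0.543).

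At day 0, 6 of 24 male-biased genes fell with CCl4, 3 without library 3 or without library 4, and 12 when only the compared groups were fitted. They were Susd4, Mup1, Mup7, Mup11, Cyp7b1 and Capn8, and 0 rose. Over all genes 1.11% were called lower there. Mup1 went from 369 ± 101 to 7.11 ± 1.55 CPM (-5.71 ± 0.67, adjusted p = 0.0013), Susd4, a complement inhibitor, from 23.3 ± 4.29 to 1.05 ± 0.37 CPM (adjusted p = 0.00121), and the calpain gene Capn8 from 27.4 ± 5.22 to 2.86 ± 0.853 CPM (adjusted p = 0.00136). These 3 calls held in 12 of 12 alternatives, while that of Cyp7b1 was lost in 5 of 12 and that of Mup11 in 2 of 12. Slco1a1 was at 404 ± 19.6 in CCl4 and 380 ± 101 CPM in OO livers (adjusted p = 0.953). With CCl4 under ethanol 16 of 24 fell and 0 rose, where 11% of all genes fell. The 4 with the smallest adjusted p were Cyp7b1 (-3.61 ± 0.26, adjusted p = 2.8e-05), Susd4 (-4.24 ± 0.45, 0.000137), Mup1 (-5.57 ± 0.60, 0.000138) and Mup7 (-6.40 ± 0.70, 0.000149). All 4 calls held in 14 of 14 alternatives. Under chow 1 of 24 fell, where 0.169% of all genes did. It was Susd4 (-3.53 ± 0.51, adjusted p = 0.0148, lost without library 16 or 17). The interaction called 0 of 24, 9 had an unadjusted p under 0.05, DESeq2 called 4 and limma-voom 1.

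The list of female-biased genes, 28 tested, was also drawn up with results known. With ethanol in CCl4 livers, where 0.501% of all genes rose, 9 of 28 rose and 0 fell, with a median of 3.25. The count was 1 without library 17, 2 without library 16, 5 without library 20 and 6 without library 19. Cyp2b9, a P450 of female liver, went from 0.981 ± 1.2 to 252 ± 16 CPM (8.04 ± 0.59, adjusted p = 0.000102), and Cyp2a4, a testosterone hydroxylase, from 1.19 ± 0.279 to 150 ± 91.1 CPM (6.98 ± 0.98, adjusted p = 0.00607, lost in 3 of 13 alternatives). Vldlr, a lipoprotein receptor, and Acnat2, a peroxisomal acyltransferase, rose by 2.67 ± 0.41 (adjusted p = 0.0111) and 1.64 ± 0.22 (0.00382). Leaving out library 17 ended both calls, and leaving out library 16 ended that of Vldlr. The Cyp2b and Cyp2a genes have close copies, so their counts are uncertain. Limma-voom called 4 of the 28.

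With ethanol in OO livers 7 of 28 rose and 0 fell, where 1.22% of all genes rose. The count was 4 with library 5 as control, 3 by limma-voom and 1 when only the compared groups were fitted. Cyp2b9 was at 169 ± 57.1 CPM against 1.03 CPM on chow (7.35 ± 0.81, adjusted p = 0.00148), and 6.94 (0.00142) with library 5 as control. At day 23 Cyp2b9 was at 1.37 CPM on chow and 253 CPM with ethanol. Female-biased Cyp3a44 was at 8.45 ± 6.79 CPM in CCl4 ethanol livers and 0.482 ± 0.164 CPM in CCl4 chow livers (4.09 ± 0.85, adjusted p = 0.0443, lost in 6 of 13 alternatives), and at 0.198 ± 0.105 CPM in OO ethanol livers. At day 0, where 0.947% of all genes rose and 1.11% fell, 3 of the list rose with CCl4 (Abcd2, Ntrk2 and Cyp4a14) and 1 fell, Acnat2. Leaving out any 1 of the 4 libraries left 1 higher, with Ntrk2 and Cyp4a14 no longer called, and limma-voom did not call Ntrk2. Under ethanol 11 were called higher and 4 lower with CCl4 (39.3% and 14.3%), beside 12.7% and 11% of all genes. The smallest adjusted p were those of Abcd2 (2.28 ± 0.19, adjusted p = 5.27e-05), Prom1 (3.43 ± 0.49, 0.000663), Atp6v0d2 (2.94 ± 0.43, 0.000748) and Cyp3a44 (5.35 ± 0.82, 0.001). Each of these calls held in 14 of 14 alternatives. Over the alternatives 7 to 13 of the list were called higher and 3 to 6 lower. Under chow, where 0.0203% of all genes rose with CCl4, 1 of the list rose. It was the peroxisomal transporter Abcd2 (2.22 ± 0.32, adjusted p = 0.014, lost without library 17 and with the days merged). The interaction called 0 of 28, 3 had an unadjusted p under 0.05, and DESeq2 and limma-voom called 0.

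**Figure D4:**
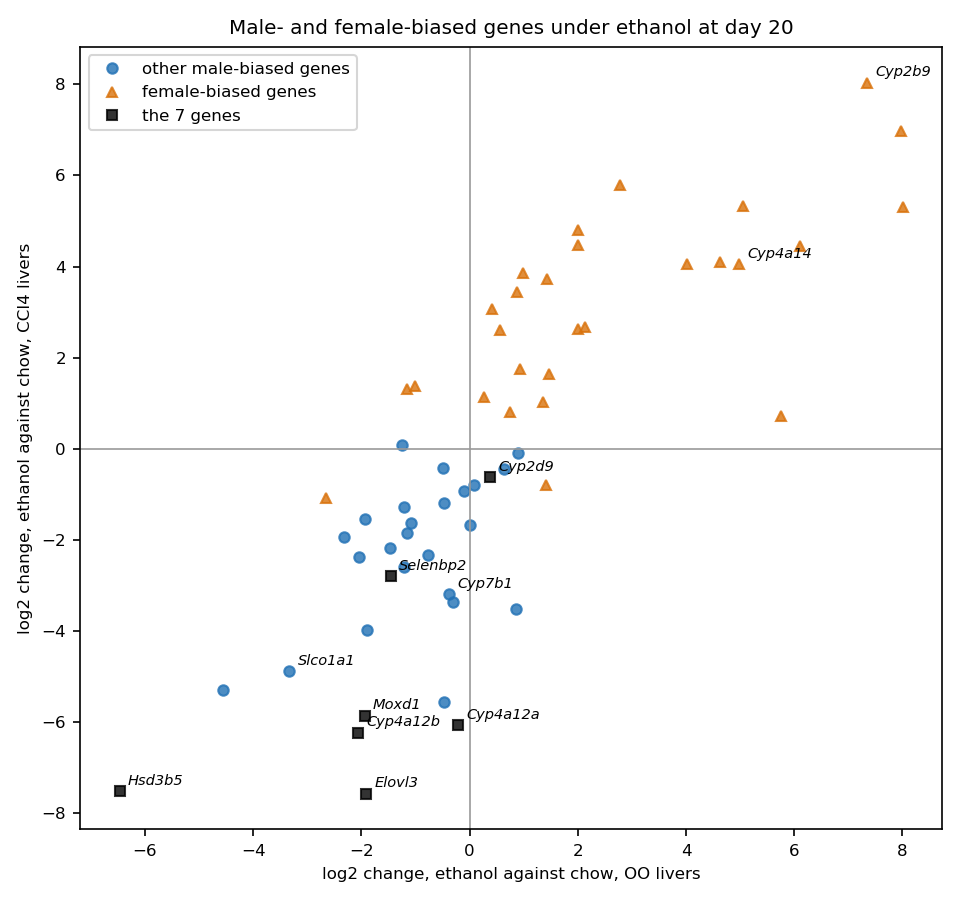
Log2 change with ethanol against chow in OO livers (horizontal) and in CCl4 livers (vertical) at day 20, for the 7 genes (squares), 24 other male-biased genes (circles) and 28 female-biased genes (triangles). In CCl4 livers 23 of 24 male-biased genes lie below 0 and 26 of 28 female-biased genes above it, and in OO livers 19 and 25 do.

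Among 21 tested family members, 1 rose and 1 fell with ethanol in CCl4 livers, beside 0.501% and 0.765% of all genes. Cyp4a14, a female-biased fatty acid hydroxylase of the family that PPARA induces, rose from 2.75 ± 1.17 to 45.4 ± 34.5 CPM (4.05 ± 0.84, adjusted p = 0.0437, lost in 7 of 13 alternatives), where Cyp4a12a and Cyp4a12b were near 0. Hsd3b3 fell from 162 ± 5.46 to 52.6 ± 15.5 CPM (-1.63 ± 0.24, adjusted p = 0.00764, lost without library 16 or 17). Selenbp1, which shares 52% of the 50-base stretches of Selenbp2, was at 183 CPM against 226 CPM (-0.30 ± 0.20, adjusted p = 0.632), where Selenbp2 was at 65.3 against 455 CPM. The elongases Elovl1 and Elovl2 were not called where Elovl3 was near 0, with Elovl1 at -0.07 ± 0.16 and Elovl2 at -0.25 ± 0.16 (adjusted p = 0.907 and 0.619).

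In OO livers 2 family members rose with ethanol and 1 fell, where 1.22% of all genes rose and 2.42% fell. Those that rose were Cyp4a14 (192 ± 92.2 against 6.01 CPM, adjusted p = 0.0374, 0.127 with library 5 as control) and Cyp2d10 (1009 ± 51.6 against 533 CPM, adjusted p = 0.0423, 0.132 with library 5). The elongase Elovl5 fell there, from 616 to 225 ± 15.9 CPM (-1.45 ± 0.14, adjusted p = 0.000989, 0.00035 with library 5). At day 0, Elovl2, Elovl5 and Cyp4a14 rose with CCl4 and Cyp2d40 fell, where 0.947% of all genes rose and 1.11% fell. The log2 change was 1.18 ± 0.18 for Elovl2 and 1.20 ± 0.14 for Elovl5, where Elovl3 differed by 0.19 ± 0.97. The calls of Elovl2 and Cyp4a14 were each lost when any 1 of the 4 libraries was left out. With CCl4 under ethanol 11 of 21 fell (52.4%) and 3 rose (14.3%), beside 11% and 12.7% of all genes. The family members that fell included 7 Cyp2d genes, and Cyp2d10 went from 1009 ± 51.6 to 520 ± 91.7 CPM (-0.96 ± 0.15, adjusted p = 0.000993), beside -1.06 ± 0.23 for Cyp2d9. Among the 7, Cyp2d12 (0.279 against 0.897 CPM) and Cyp2d34 (0.458 against 2.17 CPM) stood at low levels in both groups. With CCl4 under chow 0 were called, 2 had an unadjusted p under 0.05, DESeq2 called 1 and limma-voom 0. The interaction called 0, 4 had an unadjusted p under 0.05, and DESeq2 and limma-voom called 1 each.

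**Figure D5:**
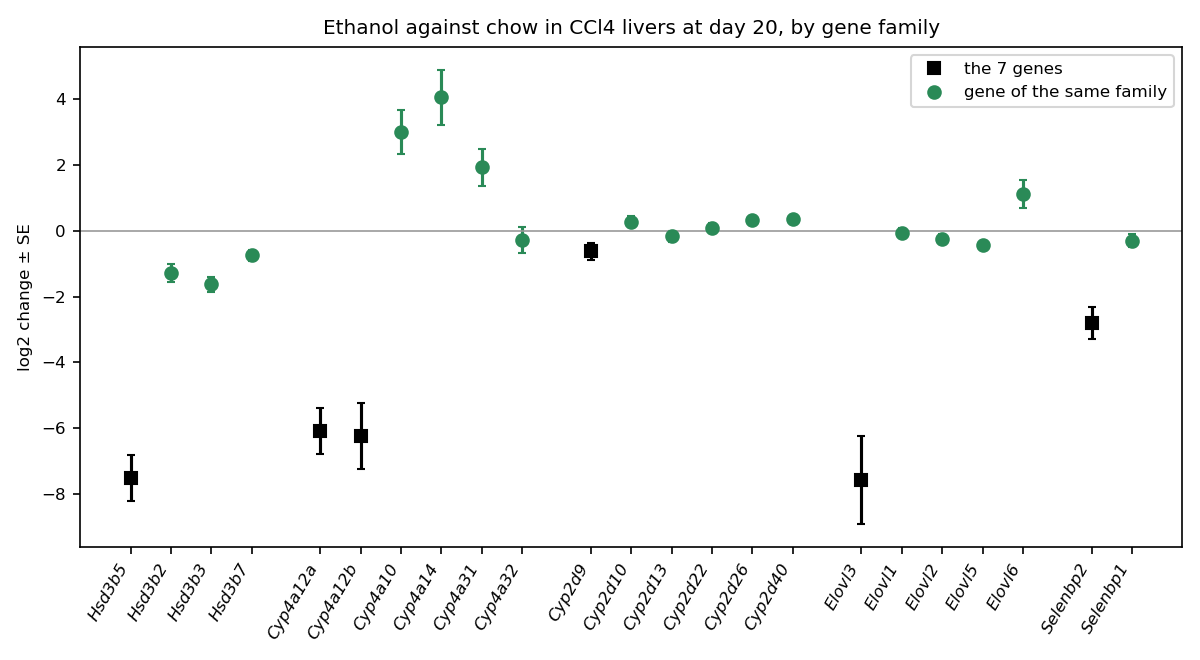
Log2 change ± SE with ethanol against chow in CCl4 livers at day 20 for 5 of the gene families, with the 7 genes other than Moxd1 as squares and their relatives as circles. Moxd1, which has no relative among the genes tested, is not drawn. Within the Cyp4a family Cyp4a12a and Cyp4a12b lie near -6, Cyp4a32 lies at -0.28 ± 0.39, and Cyp4a10, Cyp4a14 and Cyp4a31 lie above 0. Cyp4a10, Cyp4a31 and Cyp4a32 were not called.

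The 7 genes did not follow each other equally over the 15 libraries, which differ in group and depth. Pearson's r of log2 CPM was 0.94 between Cyp4a12a and Cyp4a12b, 0.94 between Cyp4a12a and Elovl3 and 0.92 between Hsd3b5 and Selenbp2. Cyp2d9 stood furthest apart, with r from 0.18 (Hsd3b5) to 0.63 (Moxd1 and Cyp4a12a). The mean scaled level of the 7 (each gene centred and divided by its SD) was 0.92 and 1.07 in OO livers at day 0, 0.48 and 0.51 in CCl4 livers at day 0, and 0.67 in OO chow at day 20. It was 0.35, -0.31 and 0.07 in OO ethanol, 0.24 and 0.22 in CCl4 chow and -1.20, -1.71 and -1.54 in CCl4 ethanol livers. On this measure the OO day 0 libraries lay above all others and the CCl4 ethanol libraries below all others.

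Among 9794 other named genes with a mean of at least 5 CPM, the 8 whose log2 CPM was most like this mean level were Cyp2u1 (r = 0.962), Ces3a (0.962), Nudt7 (0.961), Cyp7b1 (0.960), Ces3b (0.937), Mup7 (0.932), Mup20 (0.930) and Mup14 (0.929). Ces3a, a carboxylesterase of the endoplasmic reticulum, was at 1737 ± 250 CPM in OO livers at day 0 and 332 ± 141 CPM in CCl4 ethanol livers. Cyp2u1, a fatty acid hydroxylase, was at 33 ± 6.48 and 2.89 ± 1.66 CPM in the same groups. The 4 most opposed genes were Prom1 (r = -0.907), Gusb (-0.900), Nt5c2 (-0.894) and Plpp2 (-0.890). Prom1, a female-biased membrane gene, was at 62.2 ± 19.4 CPM in CCl4 ethanol livers and at most 16.4 CPM in any other library. Without libraries 6 and 12, 6 of the 8 were again among the 8 most like and 1 of the 4 among the 4 most opposed, mostly at other ranks. The single closest gene was Slco1a1 for Hsd3b5 (r = 0.975), Ces3a for Cyp4a12a (0.965) and Elovl3 (0.959), and Cyp2u1 for Cyp4a12b. It was Mup7 for Moxd1 (0.958), Cmtm6 for Selenbp2 (0.982) and Itpk1 for Cyp2d9 (0.889). These correlations are across groups and describe the libraries only.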

How the data were processed

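For each of the 15 libraries the authors deposited a table of raw counts by gene symbol, made with the aligner GSNAP against mm10, per the submitters' processing notes, which also name DESeq2 1.12.3. The counting program, annotation and strand setting were not given in the sources used here. The names of the tables give another day than the labels, and the labels were followed. Of the reads listed, 41.35% to 53% were counted for genes. The 5 entries that name no gene were left out.

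The members and the gene lists were chosen with earlier results of these data known. Named genes are all members, 12 genes fixed by name, the genes most like the members, and per list and comparison up to 4 called genes with the smallest adjusted p and a group mean of at least 5 CPM. Some of these genes are not printed in every comparison where this rule picks them. Stat5a, Tox, Selenbp1, Elovl1, Cyp4a10, Cyp4a31 and the other family members in the family plot, and genes listed as called beyond the first 4, were added after their values were seen.

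The filter filterByExpr kept 14778 genes. With TMM scaling, edgeR 4.0.16 (R 4.3.3) fitted a mean for each of the 8 groups, leaving 7 residual degrees of freedom (common dispersion 0.0414). A group with 1 library is assumed to vary like the others. All adjusted p-values are from edgeR's quasi-likelihood test of 6 comparisons, with Benjamini-Hochberg adjustment over all genes, and a gene is called when its adjusted p is under 0.05. The SE of an edgeR log2 change was taken as the size of the change divided by the square root of its F statistic. It is therefore approximate, above all where counts are near 0. Log2 levels carry a prior count of 2. Intervals of count ratios are exact at 95% and cover counting error only. The procedure was tested on simulated data. Alternatives were RLE scaling, other filters, DESeq2 1.42.0, limma-voom (limma 3.58.1) with lane as a random block, fewer groups, the days merged, library 5 in place of library 12, and each library left out. Leaving out libraries 6 and 12 was added after seeing the data.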

Additional observations from a re-analysis of the deposited data

Results flagged for a closer look

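The members and the 12 genes fixed by name were searched for opposite changes. Some had every library of one arm above its control and every library of the other arm below its own. How many of all genes show such a pattern was not counted. With so few libraries per group such a pattern can arise by chance, so nothing is read from the number of genes flagged. Cyp2d9 was higher with ethanol in all 3 OO libraries and lower in all 3 CCl4 libraries, a difference of 0.98 between the log2 ratios of group means (0.37 and -0.62). Its test is the interaction, -0.98 ± 0.43, which edgeR did not call. For the other 3 genes the difference was not tested. The CCl4 ratio of Cyp4a12b was 0.35 at day 0 and -1.86 under chow at day 20, a difference of 2.21. For Ghr the same ratios were 0.36 and -0.39, a difference of 0.75, and for Igf1 they were 0.56 and -0.33, a difference of 0.88. The day 20 side of the last 3 rests on library 12 alone as control.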

How the results depend on the processing

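No paired analysis was possible because the labels do not pair libraries of different groups.

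Of 531 alternative values of the log2 changes of the 7 genes, 496 lay within 1 SE of the reported value. The sign differed in at least 1 alternative for 5 of 42 changes, all of them small: Elovl3 at day 0 (-0.15 to 0.64), Cyp4a12a with ethanol in OO livers (-1.07 to 0.09), and under chow Cyp4a12a (-1.15 to 0.22), Cyp2d9 (-0.15 to 0.13) and Selenbp2 (-0.11 to 0.91). No called change of a gene fixed by name changed sign, and 139 of 155 alternative values of these kept the call.

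The number of genes called over all genes moved more, and the cause was not tested. At day 0, 304 genes were called, 729 by DESeq2, 2240 when only the compared groups were fitted, and 52 to 121 with 1 library left out. With ethanol in OO livers 538 were called, 962 by DESeq2 (525 higher and 437 lower, against 181 and 357), 16 with only the compared groups, 1139 with the days merged, 94 with library 5 as control, and 253 (without library 15) to 1554 (without library 13) with 1 library left out. In CCl4 livers 187 were called, 416 by DESeq2, 99 with only the compared groups and as few as 49 with 1 library left out, up to 141. With CCl4 under ethanol 3509 were called, 2319 with only the compared groups and 2223 (without library 18) to 3981 with 1 library left out. With CCl4 under chow 28 were called, 51 with no filter, 115 by DESeq2, 378 with only the compared groups, 237 with the days merged, 361 with library 5 as control, and 11 to 20 with 1 library left out. The interaction called 2 genes, 49 with no filter, 148 by DESeq2, 55 by limma-voom, 0 with only the compared groups, 20 with the days merged, 14 with library 5 as control, and 0 to 21 with 1 library left out.

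Levels below about 0.3 CPM rest on fewer than 5 counts in the CCl4 ethanol libraries. Folds of Hsd3b5, Cyp4a12b, Elovl3 and Moxd1 there are therefore uncertain, as are those of Cyp4a12a, which had a count of 1 in library 20. The counting intervals do not bound these folds, because they leave out the spread between libraries. With ethanol in CCl4 livers the log2 difference of Moxd1 was -4.63 without library 17. That of Elovl3 was -9.00 without library 18.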
